A study of Mus musculus with 2 samples.

Results

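Epha3, Nr2f2, En1, Car3, Slc36a2, Itih5, Mfap5, Pdzd2 and Mt2 are 9 of the 34184 genes listed in each library. They were chosen by their high ratio of ectopic to femur level in CAR-like cells of these same libraries, so that ratio describes the choice and is no finding. CXCL12-abundant reticular (CAR) cells are stromal cells of bone marrow that surround its vessels and secrete the chemokine CXCL12 and stem cell factor. What the choice did not fix is how many cells carried each transcript, how evenly it was spread, whether the genes met in the same cells, and where else in marrow they were found.

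The 9 genes belong to different parts of the cell. Epha3 encodes a receptor tyrosine kinase that reads ephrin ligands on neighbouring cells, and Nr2f2 (COUP-TFII) and En1 (engrailed) encode transcription factors that pattern embryonic mesenchyme, limb and skin. Car3 and Slc36a2 encode a carbonic anhydrase of muscle and fat and a proton-coupled carrier of small amino acids. Itih5 and Mfap5 encode secreted proteins that bind hyaluronan and elastic microfibrils, Pdzd2 a scaffold with many PDZ domains, and Mt2 a metallothionein, a small cysteine-rich protein that holds zinc and copper.

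Femur marrow gave 1 single-cell library, and the marrow of bone that formed under the skin gave the other. The ectopic bone was taken 4 weeks after subcutaneous implantation of β-TCP (β-tricalcium phosphate, 40 mg) that carried BMP-2 (bone morphogenetic protein 2, 8 µg). In both tissues the hematopoietic cells came from C57BL6J wild-type mice and the CAR cells from Cxcl12-GFP mice, whose reporter marks Cxcl12-expressing cells. CAR cells were released with collagenase, freed of hematopoietic and endothelial cells on magnetic columns, sorted as live cells and mixed with the hematopoietic fraction before loading, so their share of a library is set by the mixing. The labels do not say how many mice were pooled. Each tissue is 1 library without replicate, so no difference was tested. All intervals are exact 95% intervals, the limit given beside a count of 0 is the level of 3 counts, and both cover counting error only.

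The femur library held 11148 barcodes and 123009924 unique molecular identifiers (UMIs, the counted molecules), and the ectopic library 7214 and 86018367. The CAR-like cluster numbered 194 cells of the femur library (median 10711 UMIs) and 125 of the ectopic one (median 14105). The libraries shared 26 barcodes, and none of them was a CAR-like cell. All 16 CAR marker genes, were present in both groups of cells, among them Cxcl12 with 8580 femur and 9686 ectopic CPM (the UMIs of a gene summed over a class and scaled by the UMI total of that class). The reporter transcript EGFP stood at 621 and 859 CPM. Ibsp, the bone sialoprotein gene of femur CAR cells, stood at 5476 against 401 CPM. A neighbouring cluster of cells with few UMIs (45 femur cells, median 1166, and 54 ectopic cells, median 1434.5) also held Cxcl12 and EGFP, but 1 of its femur cells was full of bone transcripts, and it was kept outside the class.

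In CAR-like cells all 9 genes were at least 1.5-fold higher in the ectopic library, which the choice fixed, beside 10.5% of the 8682 genes with at least 50 UMIs. All 9 were also past 5-fold, beside 0.564% of those genes. Their median log2 ratio was 3.31, and that of all 8682 genes was 0.03. The choice was not a limit on the ratio. In an order of ratios that asked for 100 CPM in 1 library, Fabp4 (12.7), Gabrg3 (12.5), Hspa1a (7.18), Hspa1b (6.31) and Angptl4 (5.92) stood between or above members without being chosen. Nr2f2 was the lowest member in that order at 5.68, and Ctsh at 5.37, Rgs16 at 5.23 and Mt1 at 4.76 came next below it. The plot of single cells shows that every gene had cells without a UMI in both libraries.

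**Figure D1:**
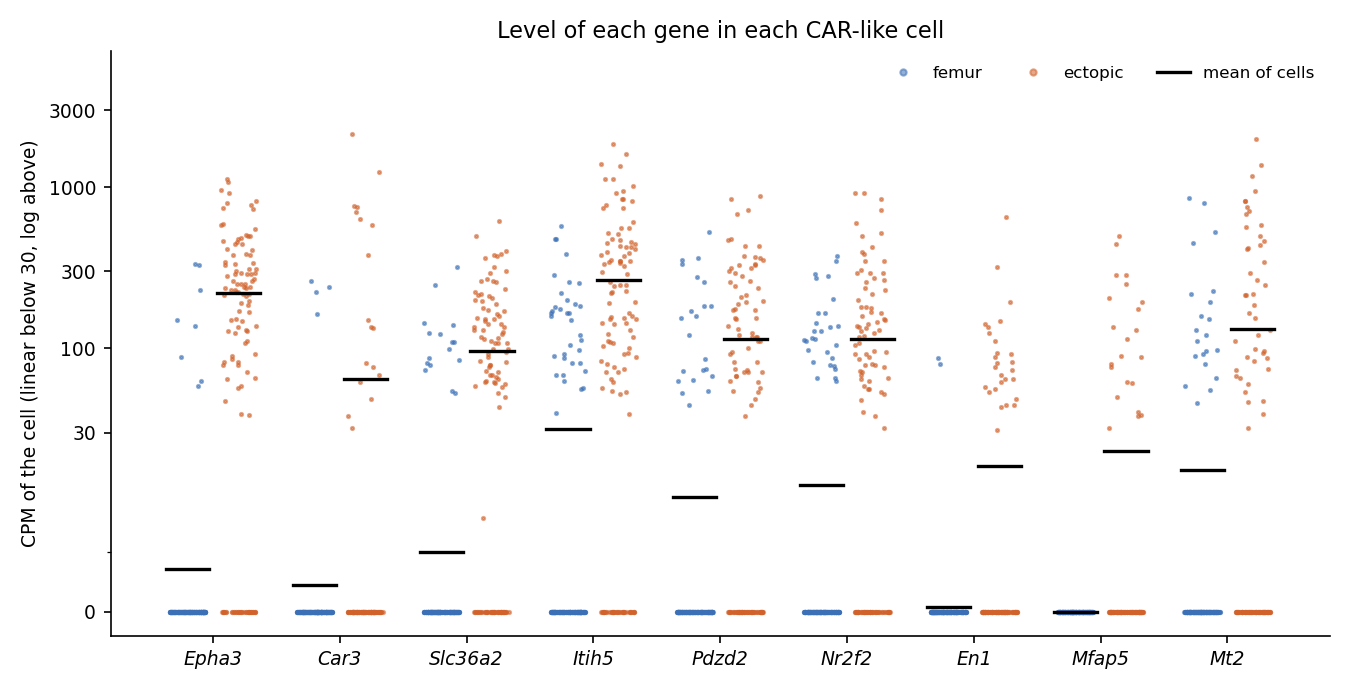
Level of each gene (CPM of the cell, linear below 30 and log above) in each of the 194 femur (blue) and 125 ectopic (orange) CAR-like cells, 1 point per cell, with the mean over cells as a bar. Cells at 0 lie on the baseline in both libraries, and Mfap5 is at 0 in every femur cell.

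Among the surface receptors, Epha3 (ENSMUSG00000052504) had the broadest presence in ectopic cells. Femur CAR-like cells held 15 UMIs of Epha3 (7.14 CPM, 3.997 to 11.8) and ectopic ones 368 (206 CPM, 185 to 228), a ratio of 28.8 (17.2 to 52.0). A UMI was found in 88 of 125 ectopic cells and in 8 of 194 femur cells. After every cell was thinned at random to 3000 UMIs, which sets depth equal and leaves 124 ectopic and 183 femur cells, the shares were 40.3% (31.6 to 49.5) and 2.19% (0.599 to 5.50). Means over 100 other draws of the thinning were 40.5% and 1.83%. The median ectopic cell had 152 CPM of Epha3, the upper quartile was 310.5 and the highest cell reached 1122. In B lineage cells, which should lack stromal transcripts and so measure free RNA, 1 of 2095 thinned femur cells and 0 of 1887 ectopic ones had a UMI, the last of which allows up to 0.159%. The 50 cells that kept an Epha3 UMI in the first draw had 1117 CPM of Adipoq, the adiponectin gene, against 2006 CPM in the other 74. Before thinning 87 of these 124 cells had one, so that split does not part cells with the transcript from cells without it.

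Nr2f2 (ENSMUSG00000030551), the nuclear receptor gene, was also widespread. It had 44 femur UMIs (20.95 CPM, 15.2 to 28.1) and 213 ectopic ones (119 CPM, 104 to 136), a ratio of 5.68 (4.09 to 8.05). In the ectopic library 68 of 125 cells had a UMI of it, beside 28 of 194 in the femur. Thinned shares were 2.73% (0.893 to 6.26) and 20.2% (13.5 to 28.3). The femur share depended on the draw: over 100 others its mean was 6.26%, with a range of 2.73% to 9.84%, and the ectopic mean was 23.5%. The log2 ratio of 2.51 became 3.63 when levels were taken from the thinned cells of the first draw. The femur share of that draw was at the low end of this range, so the rise depends on the draw.

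En1 (ENSMUSG00000058665), the homeodomain factor gene, was sparse in both libraries. The femur cells held 2 UMIs in 2 cells and the ectopic cells 48 UMIs in 27 cells, 26.8 CPM (19.8 to 35.6), for a ratio of 28.2 whose interval ran from 7.39 to 239. Only 3 ectopic cells had 3 or more UMIs, and the highest had 8. The thinned ectopic share was 5.65% (2.30 to 11.3), 7 cells of 124, and the femur share was 0.546%, with means of 5.74% and 0.240% over the other draws. The 8 UMIs of the leading cell were 16.7% of the total, and without that cell 42 UMIs remained over both libraries.

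The metabolic genes split into one held by few cells and one held by many. Car3 (ENSMUSG00000027559) had 10 femur UMIs (4.76 CPM, 2.28 to 8.76) in 4 cells and 134 ectopic UMIs (74.9 CPM, 62.8 to 88.7) in 18 cells, a ratio of 15.7 (8.29 to 33.6). The leading cell alone held 45 UMIs, 33.6% of the ectopic total, and the 5 highest cells held 74.6%. The thinned shares were 7.26% (3.37 to 13.3) of ectopic and 0.546% of femur cells, the latter 1 cell of 183, and the other draws gave means of 7.59% and 1.17%. The leading cell also held 170 UMIs of Fabp4, the fatty acid carrier gene of fat cells. Over the 9 thinned cells with Car3, Fabp4 stood at 1834 CPM, against 146 CPM in the other 115. The adipocyte marker list without Car3 summed to 38.6 CPM over the femur cells and 328 CPM over the ectopic ones, with a median of 0 over cells in each, and 4 of its 11 genes were at 0 in each library (Retn, Ucp1 and Lep in both). Fabp4 is on that list and alone gave 22.9 CPM of the femur sum and 291 CPM of the ectopic sum. The part of fat cell transcripts in the Car3 ratio was not tested. Skeletal muscle markers, the other tissue known for Car3, were at 0 for 7 of 10 genes in each library and summed to 2.38 and 3.91 CPM.

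Slc36a2 (ENSMUSG00000020264), the amino acid carrier gene, had 21 femur UMIs (9.999 CPM, 6.19 to 15.3) and 177 ectopic UMIs (98.9 CPM, 84.9 to 115), a ratio of 9.89 (6.28 to 16.4). In the ectopic library 74 of 125 cells had a UMI, and 23 had at least 3. The femur library had it in 16 of 194 cells, none with more than 2 UMIs. Thinned shares were 25.8% (18.4 to 34.4) and 4.37% (1.91 to 8.43) in the first draw, while 100 other draws averaged 23.3% and 2.80%. B lineage cells had it in 0 of 2095 and 0 of 1887 thinned cells, which allow up to 0.143% and 0.159%.

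The ratios of Car3 and Slc36a2 depended on which cells entered the class. With no doublet removal the log2 ratio of Car3 was 2.13 in place of 3.98, and with the low-UMI cluster added it was 0.90, because 1 femur cell of that cluster held 71 of its 75 Car3 UMIs. Those settings gave 2.61 and 2.51 for Slc36a2 in place of 3.31, and the same femur cell held 16 UMIs of it. With no doublet removal the class numbered 299 femur and 201 ectopic cells, of which the doublet score had flagged 57 and 21. Cells other than flagged ones thus entered it too, and whether they came from the low-UMI cluster was not tested.

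Of the matrix genes, Itih5 (ENSMUSG00000025780) was present in both libraries. Femur CAR-like cells held 81 UMIs (38.6 CPM, 30.6 to 47.9) and ectopic ones 493 (276 CPM, 252 to 301), a ratio of 7.14 (5.64 to 9.15). Cells with a UMI numbered 35 of 194 and 85 of 125, with thinned shares of 5.46% (2.65 to 9.82) and 37.9% (29.3 to 47.1) and means of 8.08% and 39.3% over 100 other draws. The ectopic levels ranged from 0 to 1836 CPM, with a median of 123 and an upper quartile of 377. The 47 cells that kept an Itih5 UMI in the first draw had more Adipoq (2292 against 1262 CPM) and less Ibsp (191 against 542 CPM) than the other 77. Before thinning 84 of these 124 cells had one, so many of the other cells carried it too.

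Mfap5 (ENSMUSG00000030116), the microfibril gene, was not seen in femur CAR-like cells. Its 0 femur UMIs allow up to 1.43 CPM, the level of 3 UMIs, and its 64 ectopic UMIs made 35.8 CPM (27.5 to 45.7). Against that floor the ectopic level was at least 25.04-fold higher. The transcript was found in 22 of 125 ectopic cells, 9 of them with at least 3 UMIs, and 5 cells held 54.7% of it. Thinned to 3000 UMIs, 4 of 124 ectopic cells kept one (3.23%, 0.886 to 8.05), and 100 other draws gave a mean of 5.94%, so this share rests on few cells. On the log2 scale this bound was 4.65, and it was 1.56 in the first draw of the thinning, where few UMIs were left, and 5.30 with no doublet removal. Fibroblast markers in the same cells summed to 859 femur and 907 ectopic CPM, and Cd34 and Mfap4 were at 0 in both.

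Pdzd2 (ENSMUSG00000022197), the PDZ scaffold gene, had 34 femur UMIs (16.2 CPM, 11.2 to 22.6) and 178 ectopic UMIs (99.5 CPM, 85.4 to 115), a ratio of 6.15 (4.24 to 9.15). It was found in 22 of 194 femur and 64 of 125 ectopic cells, and in 4.37% (1.91 to 8.43) and 25.8% (18.4 to 34.4) of thinned cells (means of 4.596% and 24.3% over 100 other draws). B lineage cells carried it in both libraries, in 13.4% of thinned femur and 12.1% of ectopic cells, so the femur CAR-like share lay below theirs and the ectopic share above. The log2 ratio of 2.62 was 1.72 with no doublet removal and 1.55 with the low-UMI cluster, where 31 of the 38 femur UMIs came from the same bone-rich cell.

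Mt2 (ENSMUSG00000031762), the metallothionein gene, had 57 femur UMIs (27.1 CPM, 20.6 to 35.2) and 296 ectopic UMIs (165 CPM, 147 to 185), a ratio of 6.10 (4.58 to 8.24). The femur library had it in 21 of 194 cells and the ectopic library in 45 of 125. Its thinned shares were 6.56% (3.43 to 11.2) and 21.8% (14.9 to 30.1), above the means of 4.52% and 18.6% over 100 other draws. Mt2 was the member whose distribution was most all-or-none among those seen in over 40 ectopic cells: the median ectopic cell had none, 10 cells had 10 UMIs or more, the highest had 36, and 5 cells held 42.2%.

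Mt1, which encodes the sister metallothionein and lies beside Mt2, had the most similar pattern over cells. The Pearson correlation of the log2 levels of Mt1 and Mt2 was 0.71 over 124 ectopic and 0.49 over 183 femur cells of at least 3000 UMIs, as a description over cells that share a library. Of the 45 ectopic cells with Mt2, 40 also had Mt1 (88.9%), against 33 of the 80 without it (41.2%). In the femur library the counts were 13 of 21 and 39 of 173. The level of Mt1 itself was 90.9 CPM over femur cells and 433 CPM over ectopic ones. Because these neighbours moved together over cells, the 250 bases before their start sites are shown, from RefSeq on GRCm38.p6, a build other than the GRCm39 of the counts. Capitals mark matches to the core of the metal response element, TGCACNC or TGCGCNC on either strand, the site known to be read by the zinc sensor MTF1.
Mt2 (chr8:94172368-94172617, + strand): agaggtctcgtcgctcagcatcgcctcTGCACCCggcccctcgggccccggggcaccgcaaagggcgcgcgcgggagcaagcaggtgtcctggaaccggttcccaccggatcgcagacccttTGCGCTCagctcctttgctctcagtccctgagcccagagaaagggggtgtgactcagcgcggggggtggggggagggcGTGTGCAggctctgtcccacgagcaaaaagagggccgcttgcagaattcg
Mt1 (chr8:94178839-94179088, + strand): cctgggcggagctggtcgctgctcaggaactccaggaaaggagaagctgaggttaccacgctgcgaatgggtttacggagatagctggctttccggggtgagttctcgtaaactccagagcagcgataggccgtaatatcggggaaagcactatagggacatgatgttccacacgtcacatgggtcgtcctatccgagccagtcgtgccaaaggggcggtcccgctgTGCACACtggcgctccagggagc
The Mt2 window held 3 such cores, a number reached by 1.28% of 27025 promoters, and the Mt1 window 1. The windows follow the annotated start sites and bases outside them were not searched. These counts therefore do not compare the whole promoters of Mt1 and Mt2. At least 1 core was present in 21.3% of promoters. The promoter table matched 6 of the 9 members (Epha3, Itih5, Pdzd2, Nr2f2, En1 and Mt2), and the windows of the other 5 held no metal core. Searched on both strands, AGGTCA (a hexamer read by nuclear receptors), TAATTA (homeodomain), GGCGCC (a GC-rich SMAD site) and TATAAA (the TATA box) matched in none of the 6, and CAGACA (the SMAD box) matched once, in Nr2f2. Of all promoters, 13.8%, 4.90%, 9.54%, 12.97% and 17.1% held these motifs in that order. The matched members therefore shared no motif of this set.

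**Figure D2:**
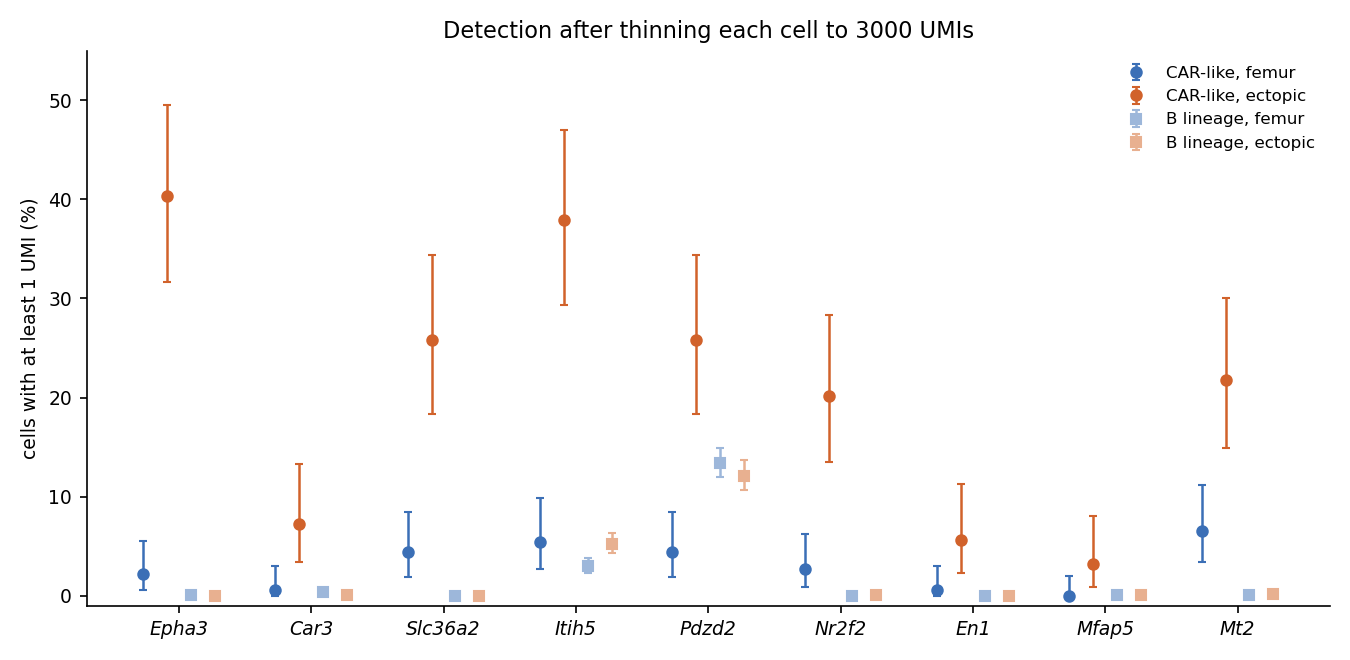
Share of cells (%) with at least 1 UMI of each gene after each cell was thinned to 3000 UMIs, for CAR-like cells (circles) and B lineage cells (squares) of the femur and ectopic libraries, with exact binomial 95% intervals. Ectopic CAR-like shares lie above femur ones for all 9 genes, and Mfap5 and En1 have overlapping intervals.

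The genes differed in how their UMIs were spread over ectopic cells. Epha3 and Slc36a2 were the most even, with 18.8% and 20.9% of their UMIs in the 5 highest cells and 20 and 18 cells needed to reach 50% of them. Pdzd2, Itih5 and Nr2f2 followed with 23.6%, 26.8% and 27.7%. Mt2 (42.2%), En1 (43.8%), Mfap5 (54.7%) and Car3 (74.6%) had larger shares in 5 cells, and 3 cells held 50% of the Car3 UMIs. This share is higher where UMIs are few, and En1 had 48 and Mfap5 64. For scale, Kitl, the stem cell factor gene that all ectopic CAR-like cells carried, had 15.9% in its 5 highest cells and Cxcl12 12.0%. The variance of the UMIs was 2.42 times their mean for Slc36a2, 2.85 for En1, 3.07 for Pdzd2, 4.11 for Epha3, 4.35 for Nr2f2 and 5.15 for Mfap5. It was 10.3 for Itih5, 14.1 for Mt2 and 21.7 for Car3, but 43.6 for Kitl and 69.7 for Cxcl12. Both measures depend on the number of UMIs, so these orders are in part orders of abundance.

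**Figure D3:**
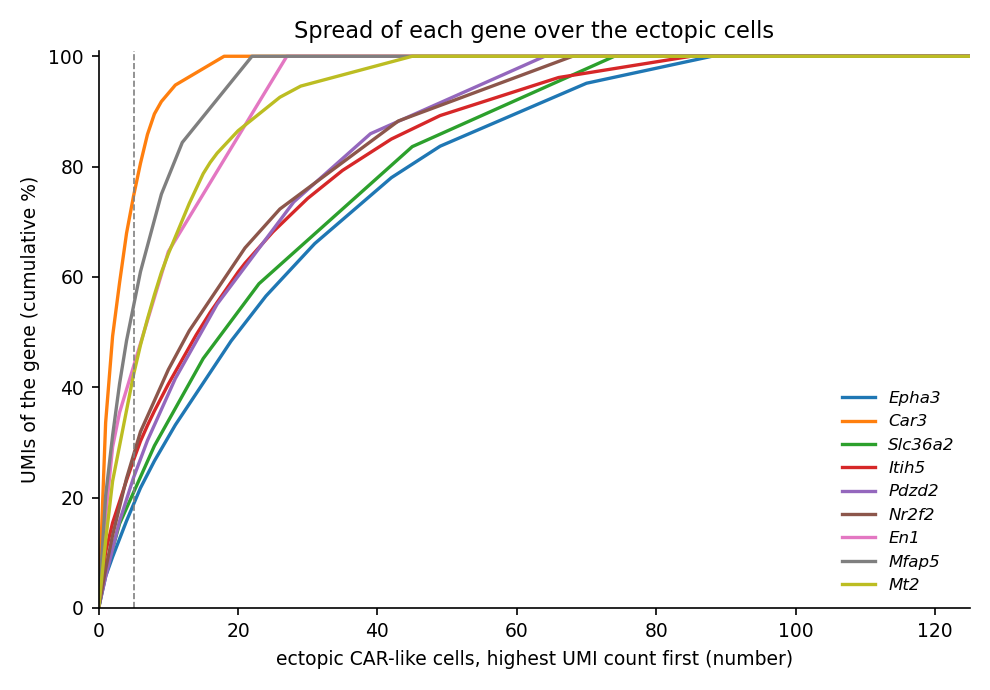
Cumulative share (%) of the ectopic UMIs of each gene over the 125 ectopic CAR-like cells, ordered separately for each gene from the cell with most UMIs, with a dashed line at 5 cells. Car3 reaches 74.6% at that line and Epha3 18.8%.

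The leading cells were mostly different from gene to gene. The 5 highest cells of each of 9 genes make 45 places, and 34 cells filled them, 27 of them for 1 gene, 4 for 2 genes and 3 for at least 3. The cell with the most UMIs of all ectopic CAR-like cells (63813) led for Epha3 (21 UMIs), Mfap5 (13) and Mt2 (36) and was among the 5 highest of Nr2f2 (9). Its depth was 63813 UMIs against a median of 14105, and whether it held more than 1 cell was not tested. Without the leading cell of each gene in turn, log2 ratios ranged from 2.41 for Nr2f2 to 4.82 for Epha3, and Car3 was at 3.40.

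Taken per cell, the genes met in ectopic CAR-like cells far more often than in femur ones, as their higher shares alone require. At 3000 UMIs an ectopic cell showed 1.88 of the 9 genes on average and a femur cell 0.268. None of the 9 was seen in 13 of 124 ectopic cells and in 139 of 183 femur cells. At least 3 were seen in 35 ectopic cells (28.2%, 20.5 to 37.0) and in 0 of 183 femur cells, which allows up to 1.64%, and the most in a cell was 5 against 2. Over 100 other draws of the thinning, cells with at least 3 had a mean of 29.3% (range 21.8% to 37.1%) in the ectopic and 0.333% in the femur library. Most ectopic cells thus showed only some of the genes at this depth. With cells thinned to 6000 UMIs the ectopic share with at least 3 was 67.0%, and with no thinning 78.4%, so these numbers depend on depth.

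Within the ectopic library most pairs of the genes showed little correlation over cells. Co-detection of a pair was summarised by phi, the correlation of presence over the 124 thinned cells, averaged over 100 draws. Across the 36 pairs phi ran from -0.09 (Car3 and Mt2) to 0.15 (Car3 and Slc36a2), with a median of -0.01, and 2 pairs were above 0.1. A single draw is unstable in counts this low: the first draw gave values from -0.23 to 0.26, and that of Epha3 and Car3 was -0.23 where the mean over 100 draws was 0.01. Spearman correlations of CPM, from all UMIs of the same cells, ran up to 0.29 for En1 and Mt2, 0.28 for Car3 and Slc36a2 and 0.23 for Mfap5 and Mt2. The UMIs of 8 of the 9 genes, not scaled, had Spearman correlations of 0.2 or more with the UMI total of the cell, and only Pdzd2 (0.07) did not. CPM divides by that total, and how far CPM still followed depth was not tested. Few UMIs per cell pull both measures toward 0, so these weak values cannot show that the genes lack a shared pattern. They are descriptions over cells of 1 library.

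**Figure D4:**
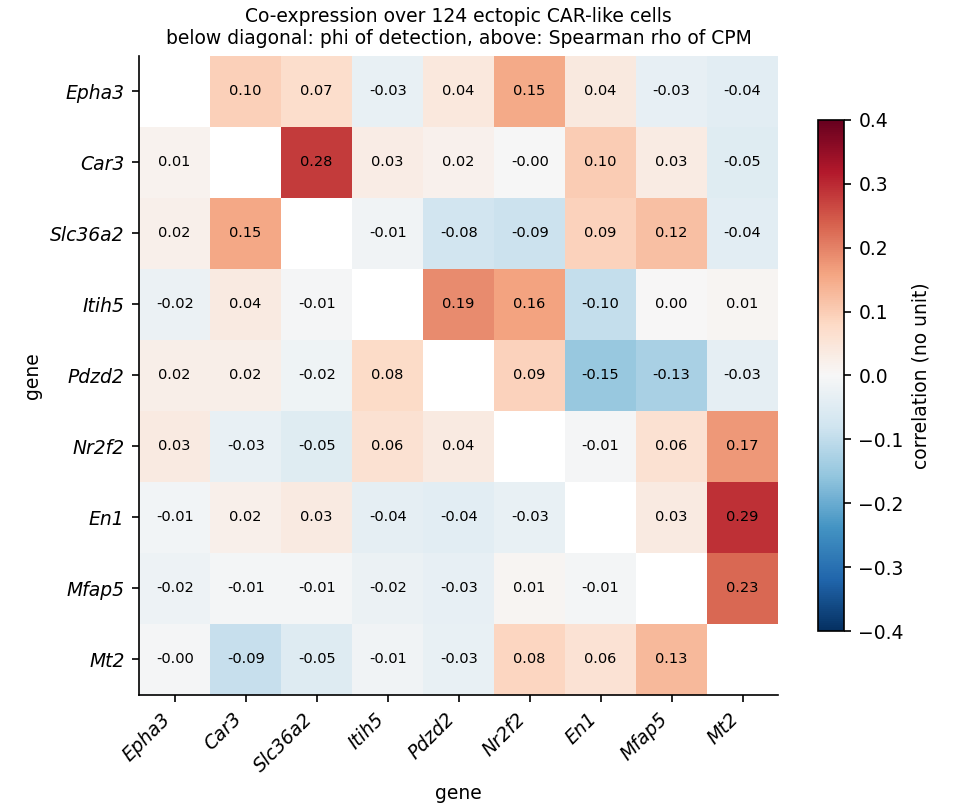
Correlations of the 36 pairs over 124 ectopic CAR-like cells: below the diagonal phi of detection at 3000 UMIs (mean of 100 draws), above it Spearman rho of CPM. Car3 with Slc36a2 is the pair with the highest phi, 0.15, and most cells of the grid are near 0.

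Car3 and Slc36a2 had the highest phi and the next to highest Spearman correlation of the 36 pairs. In the first draw 6 of the 9 cells with Car3 had Slc36a2, against 22.6% of the cells without it, and 2 of their 5 highest cells were the same. The cell with 45 Car3 UMIs held 8 of Slc36a2, and the next, with 21, held 5. Epha3 and Nr2f2 also shared 2 of their 5 highest cells, as did Epha3 and Mfap5.

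Among genes most like each member over these cells, ranked by Pearson correlation of log2 level among 7883 genes seen in at least 20 cells, the first of Mt2 and Mfap5 had the highest values. Mt2 had Mt1, then the transcription factor gene Cebpd at 0.56 and Zfp36, which encodes an mRNA decay factor, at 0.53. Those were at 0.21 and 0.27 in femur cells. Mfap5 had the receptor tyrosine kinase gene Axl at 0.50, seen in 20 of 124 cells, the ligand gene Wnt5a at 0.41 and the collagen VI gene Col6a3 at 0.40. For Pdzd2 the first was Clasrp at 0.43, and for Epha3, Slc36a2, Itih5, Nr2f2 and En1 the highest values were between 0.35 and 0.39. Car3 was seen in 18 cells and was not ranked.

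Femur CAR-like cells were not alike, and a finer clustering set apart those with less bone sialoprotein. At a Leiden resolution of 2, 42 femur cells fell with 124 ectopic cells in a cluster led by Ghr, the growth hormone receptor gene, and 152 femur cells with 1 ectopic cell in another led by Ibsp. The 42 femur cells had 771 CPM of Ibsp, against 5971 CPM in the other femur cells and 339 CPM in the 124 ectopic cells, but only 2864 CPM of Cxcl12. Adipoq was at 90.1 CPM in them, against 1318 CPM in the other femur cells and 1684 CPM in those ectopic cells. They were also shallow, with a mean of 4755 UMIs per cell against 14311 in the ectopic cells. In those 42 cells Epha3 stood at 20.03 CPM (5.46 to 51.3) with 4 UMIs, Nr2f2 at 20.03 CPM with 4, Slc36a2 at 15.02 CPM with 3, Itih5 at 10.01 CPM with 2 and Mt2 at 5.01 CPM with 1. Pdzd2 had 8 UMIs (40.1 CPM, 17.3 to 78.9). Car3, En1 and Mfap5 had 0, each allowing up to 15.02 CPM. In the ectopic cells of the same cluster the levels were 203 CPM for Epha3 (182 to 225), 118 for Nr2f2, 99.2 for Slc36a2, 278 for Itih5, 167 for Mt2 and 100.3 for Pdzd2. These values are a part of those by which the members were chosen, so their order describes the choice. The members were left out of the genes used for clustering.

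Over the other cell classes the members went different ways, and the contrast within those classes did not choose the genes. The ectopic shares given first do rest on the CAR-like counts of the choice, so they are partly set by it. Among kept cells of the ectopic library, Epha3, Slc36a2, Nr2f2 and En1 were found mostly in CAR-like cells. These held 93.6%, 92.7%, 95.1% and 94.1% of their UMIs with 1.95% of the cells. For Mfap5 the share was 80% and for Car3 64.7%. The shares leave out 6 ectopic cells rich in the collagen gene Col1a1, described below, which the doublet score had removed. Those cells held 76 UMIs of Epha3, 89 of Slc36a2, 335 of Car3, 16 of Nr2f2 and 9 of En1. The shares therefore depend on that filter. In the femur library CAR-like cells gave 86.3% of 51 Nr2f2 UMIs but 24.6% of 61 Epha3 UMIs. Of the remaining femur Epha3 UMIs, 31 were in a T cell cluster led by Trbc2 and Themis, at 9.23 CPM, which had 1.61 CPM (7 UMIs) in the ectopic library.

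Itih5, Pdzd2 and Mt2 were also transcripts of blood cells. Neutrophils had 35.5 CPM of Itih5 in the femur library and 47.8 CPM in the ectopic one, 1.35 times as much (1.25 to 1.45), the highest level among named classes other than CAR-like cells. It was higher in the ectopic library in each of the 6 neutrophil clusters. The low-UMI cluster held outside the class had 335.6 CPM in the ectopic library (32 UMIs), and unnamed clusters of low depth had up to 80.2 CPM (13 UMIs). In B lineage cells it stood at 9.51 and 16.5 CPM (ratio 1.73, 1.397 to 2.15), and cluster by cluster the ectopic level was above the femur one by less, from 5.43 and 5.67 CPM to 12.7 and 19.1 CPM. The sum of T and NK cells had 19.7 CPM of it in the ectopic library beside 32.1 CPM in the femur (ratio 0.612, 0.467 to 0.801). That difference lay in the T cell cluster led by Trbc2 and Themis (28.9 femur and 14.3 ectopic CPM), while the cluster led by Gzma and Klra4 had 47.7 and 50.9 CPM. In myeloid progenitors the values were 28.1 and 26.2 CPM (ratio 0.931, 0.698 to 1.23).

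B lineage cells had 91.3 CPM of Pdzd2 in the femur library and 77.8 CPM in the ectopic one, which is 0.852 times as much (0.786 to 0.924). The classes differ in make-up: the cluster of Bank1 and Ighd, low in Pdzd2, gave 778 of 2255 femur but 1083 of 1974 ectopic B lineage cells, and the part of that in the ratio was not tested. That femur level was above the 16.2 CPM of femur CAR-like cells, and the ectopic level was below the 99.5 CPM of ectopic CAR-like cells. Within the B lineage, femur levels were above ectopic ones in the cluster led by Igha and Jchain (148 and 118 CPM) and the one led by Reln and Rag1 (139 and 119.7 CPM). They were below them in the clusters of Bank1 and Ighd (43.1 and 48.6 CPM) and of Vpreb1 and Igll1 (50.7 and 66.1 CPM). A small unnamed cluster led by Fcrl5 and Sox5, of 25 femur and 18 ectopic cells, had 237 and 190 CPM.

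Mt2 was highest in erythroid cells of the femur library, at 222 CPM, and stood at 138 CPM in those of the ectopic library (ratio 0.621, 0.553 to 0.697). Myeloid progenitors had 19.5 and 20.01 CPM (ratio 1.03, 0.734 to 1.42). In neutrophils, monocytes and B lineage cells it did not exceed 1.02 CPM. The ectopic to femur ratios of Mt2 in CAR-like and erythroid cells lay on opposite sides of 1.

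**Figure D5:**
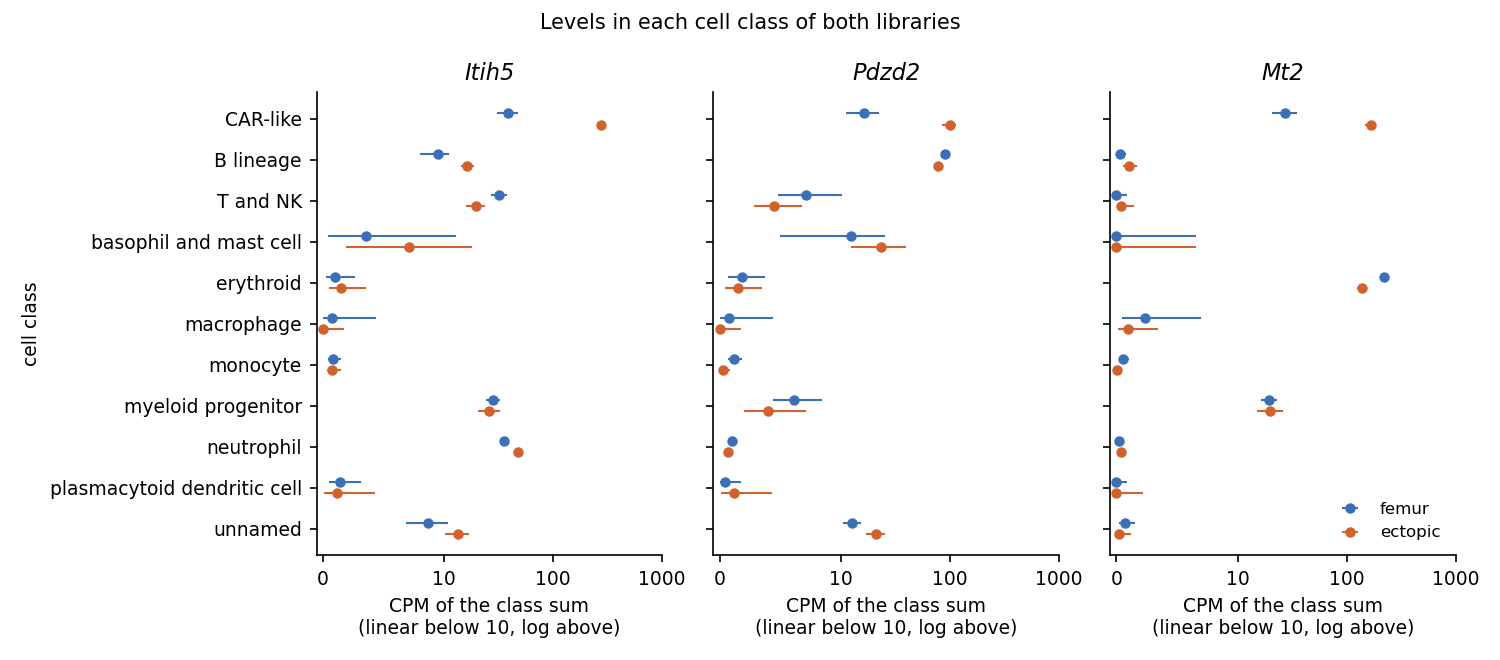
Level (CPM of the summed class, linear below 10 and log above) of Itih5, Pdzd2 and Mt2 in each cell class of the femur (blue) and ectopic (orange) library, with exact Poisson 95% intervals. CAR-like cells show ectopic levels above femur ones for the 3 genes, whereas Pdzd2 in B lineage and Mt2 in erythroid cells show the reverse.

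Cells rich in Col1a1, the main collagen gene of bone, carried some of these genes as well. With at least 100 Col1a1 UMIs, a limit set after the values were seen, there were 2 femur and 6 ectopic cells, and 7 of these 8 had been left out by the doublet score. Cxcl12 was at 0 in both femur cells and between 0 and 12 UMIs in the ectopic ones, and none of the 8 was in the CAR-like class. The ectopic cell with 12 Cxcl12 UMIs also had 4 of EGFP and 0 of Ptprc, beside 232 of Col1a1. Whether it was a CAR cell was not tested. Car3 had 71 and 50 UMIs in the femur cells and 24 to 102 in the ectopic cells, 1868 CPM (1550 to 2232) against 1219 CPM (1092 to 1357). Slc36a2 stood at 324 CPM in both libraries, and Pdzd2 at 911 CPM (693 to 1175) in the femur and 553 CPM (469 to 649) in the ectopic cells. These 3 genes were thus present in bone-rich cells of femur marrow and were not higher in the ectopic ones.

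Epha3, En1 and Nr2f2 had no UMI in the bone-rich femur cells. Epha3 was at 0 in both femur cells, which allows up to 46.3 CPM, and had between 5 and 35 UMIs in each of the 6 ectopic cells, 277 CPM (218 to 346). The cell with 35 of these 76 UMIs was the one with 12 Cxcl12 UMIs. En1 was at 0 in the femur cells and had 1 to 3 UMIs in every ectopic one, 9 in all (32.8 CPM, 14.98 to 62.2), within what the femur depth allows. Nr2f2 was at 0 in the femur cells and had 16 ectopic UMIs (58.2 CPM, 33.3 to 94.6), whose interval includes that limit. Of the 16, 7 were in the cell with 12 Cxcl12 UMIs. Itih5, Mfap5 and Mt2 were at 0 in all 8 cells.

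Relatives of the members in gene lists went different ways. Of genes with at least 50 UMIs in CAR-like cells, 10.5% passed 1.5-fold upwards and 9.92% passed it downwards in ectopic cells, and each list is read beside those shares and the median log2 ratio of 0.03 over all measured genes. Of 5 measured Eph receptors and ephrins (median log2 ratio -0.09) none was higher and 1 was lower: Efnb1 had a ratio of 0.558 (0.442 to 0.700), the ephrin-A gene Efna5, whose product can bind EphA receptors, 0.799 (0.736 to 0.868), and Epha7 1.22 with 57.1% of its ectopic UMIs in 5 cells. Car2 was the only other carbonic anhydrase measured, with a ratio of 8.22 (4.06 to 18.8), but 93.7% of its ectopic UMIs were in 5 cells. Among amino acid carriers (median 0.41) 2 of 4 were higher, the glutamine carrier gene Slc1a5 at 2.95 (2.60 to 3.35) and Slc36a1 at 1.52 (0.861 to 2.70), while Slc36a4 was at 0.692 (0.395 to 1.19).

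For the transcription factors, 4 of 6 measured NR2 and NR4 nuclear receptor genes (median log2 ratio 0.67) were higher and 1 lower. The highest were Nr4a1 at 2.05 (1.44 to 2.95), with 65.2% of its ectopic UMIs in 5 cells, and Rxra, a retinoid X receptor gene, at 1.99 (1.30 to 3.09), and the lowest was Nr2c1 at 0.645. Of 7 patterning factors of limb and dermis (median -0.30) 2 were higher, Wnt5a at 4.11 (2.12 to 8.57) and Tbx18 at 1.97, and 3 were lower, among them Twist2 at 0.339 and Tbx15 at 0.419. Of 12 BMP antagonists and targets (median 0.44) 4 were higher, led by Id1 at 5.02 (2.56 to 10.7) and the antagonist gene Bmper at 3.97 (3.16 to 5.03), and 1 was lower, Id4 at 0.417. Id1 had 46.8% of its 47 ectopic UMIs in 5 cells.

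Among matrix genes, 2 of 13 microfibril and elastic fibre genes (median log2 ratio -0.13) were higher and 5 lower. The fibrillin genes went apart, with Fbn2 at 2.47 (2.02 to 3.05) and Fbn1 at 0.398 (0.371 to 0.428), and Fbln1 was lowest at 0.350. Of 3 hyaluronan genes (median -0.79) Tnfaip6, whose product moves inter-alpha-trypsin inhibitor chains onto hyaluronan, was at 3.59 (2.94 to 4.42) with 61.8% of its ectopic UMIs in 5 cells, and Vcan and Cd44 were lower at 0.412 and 0.580. Of 7 metallothionein and zinc genes (median -0.12) 1 was higher, Mt1, and Mtf1 stood at 0.889 (0.610 to 1.29). Of 10 glucocorticoid-induced genes (median 0.18) 3 were higher, led by Zbtb16 at 2.39 (1.97 to 2.91) and Cebpd at 2.16 (1.96 to 2.38), and none lower, with Tsc22d3 at 0.728. Of 8 genes of the PDZ scaffold list (median 0.33) 2 were higher, Pdzd4 at 1.98 and Pdlim1 at 1.90, and 1 lower, Pdzrn4 at 0.0202. Pdzd4 had 55.6% of its 54 ectopic UMIs in 5 cells.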

How the data were processed

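Single-cell RNA of 2 mouse libraries, 1 per tissue, was read from the deposited matrices of UMI counts per gene and barcode, which the authors made with Cell Ranger (version 7.0.1, per the file headers; GRCm39, per the submitters' processing notes). The annotation is not given in the sources used here. The members and gene lists were chosen with earlier results of these data known. Cells were kept with at least 500 UMIs, 300 genes and at most 10% mitochondrial UMIs, and the highest doublet scores (0.8% per 1000 cells) were left out, which gave 9755 femur and 6425 ectopic cells. Clustering used scanpy 1.11.5 on the joined libraries (2000 variable genes without the members, 30 components, 15 neighbours, Leiden resolution 1, igraph 0.11.9), and clusters were named from marker lists. UMIs were summed per class and library and scaled to CPM. A femur count of 0 was set to 3 UMIs. Ratio intervals are exact conditional binomial, level intervals exact Poisson, shares exact binomial (Clopper-Pearson). On simulated sums of 8682 genes of the CAR-like comparison, 95.5% of ratio intervals held the true value. Those sums were drawn as independent Poisson counts, the model behind the interval. The figure therefore checks the calculation only and does not cover the spread over cells or mice. Every member is named. From each related list up to 2 highest and 2 lowest ratios are named, and for each member the most similar genes. Genes such as Fabp4, Adipoq and Col1a1 set beside members, and the neighbours of Mt2, were chosen after their values were seen. Alternatives covered cell filters, doublet removal, clustering, scaling (TMM, edgeR 4.0.16 in R 4.3.3), depth and thinning. Python 3.11.15, numpy 2.4.6 and scipy 1.17.1 were used.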

Additional observations from a re-analysis of the deposited data

Results flagged for a closer look

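In 3 classes of blood cells a member was lower in the ectopic library while it was higher in CAR-like cells: Pdzd2 in B lineage cells (ratio 0.852), Itih5 in T and NK cells (0.612) and Mt2 in erythroid cells (0.621). The difference between the classes was not tested. Clusters within 2 of these classes went apart: Pdzd2 was lower in the ectopic library in 2 B lineage clusters and higher in the other two, and Itih5 was lower in the T cell cluster (28.9 and 14.3 CPM) and not in the cluster led by Gzma (47.7 and 50.9 CPM). Epha3 stood at 277 CPM in 6 Col1a1-rich cells of the ectopic library, cells outside the comparison, and had no UMI in the 2 such femur cells. Of its 76 UMIs in the ectopic ones, 35 were in a cell that also had 12 Cxcl12 UMIs.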

How the results depend on the processing

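All 9 genes stayed at least 1.5-fold higher under 12 of 15 alternatives, and 8 passed under the other 3, where En1 fell under 50 UMIs: a gate of at least 5 Cxcl12 UMIs and no Ptprc UMI, only cells with EGFP, and leaving out the leading cell. Their median log2 ratio stayed between 2.65 and 3.43 under 13 alternatives, and no gene changed direction. The shares of cells depend on depth: with no thinning the median share over the genes was 51.2% in place of 21.8% and 78.4% of ectopic cells had at least 3 genes in place of 28.2%, at 6000 UMIs these were 37.6% and 67.0%, and at 1500 UMIs 8.00% of cells had at least 3. With at most 5% mitochondrial UMIs that last share was 39.5%. With no doublet removal the median share in the 5 highest cells was 34.9% in place of 27.7%. The low-UMI cluster, the omission of leading cells and the 100 other thinnings were added after the data were seen. No paired analysis was possible because each tissue was 1 library. One library per tissue, an unknown number of mice and 125 ectopic cells limit what the ratios show, and tissue and library cannot be told apart.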
